A study of Mus musculus with 16 samples.

Results

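The digestive enzymes of the exocrine pancreas were followed through sorted cells of the mouse thymus on oligonucleotide arrays. The members were 6 genes, taken as the probe sets whose gene symbol in the platform annotation was Cela1, Cela2a, Cel, Ctrb1, Cpa1 or Rnase1. Of the 6, 5 had a probe set of their own, 1 each, among the 12488 probe sets of the array. Cpa1 had none and was not analysed here. Total RNA was hybridised to 16 arrays, 2 for each of 8 groups. Cells of the thymic medullary epithelium (mTEC) sorted for high surface CD80 (CD80hi), a costimulatory protein that marks mature mTEC, came from Aire-knockout and from wild-type mice, and mTEC sorted for low CD80 (CD80lo) came from Aire-knockout and from wild-type mice. Wild-type mice alone gave the remaining groups, which were unfractionated mTEC, epithelial cells of the cortex (cTEC), dendritic cells and macrophages, all of the thymus. The labels give no age, strain, kind of knockout allele or number of animals per sample. They do not say whether the arrays of a group came from separate animals, so p-values measure only the spread between these arrays, which may be technical.

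Acinar cells of the pancreas secrete proteases, lipases, amylase and nucleases into the gut, many of them as inactive zymogens, and their enzyme genes depend on the acinar transcription factor complex PTF1. Medullary thymic epithelium transcribes many genes of peripheral tissues, among them pancreatic ones, which exposes developing T cells to those proteins. The nuclear protein Aire, found mainly in mature mTEC, is needed for part of this transcription. Ctrb1 encodes chymotrypsinogen B, Cela1 and Cela2a encode pancreatic elastases, Cel encodes the bile-salt-activated carboxyl ester lipase, and Rnase1 encodes the secreted pancreatic ribonuclease. Cela1 is named as an elastase but is also transcribed outside the pancreas.

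The 200 bases upstream of the annotated start are shown for the 3 genes whose signals varied together over the arrays and for Cela1, which peaked in another cell type. They are RefSeq sequences on GRCm38.p6, printed on the gene's own strand, and capitals mark a match to TGGGAA or its reverse complement TTCCCA, the core letters bound by RBPJ and its acinar relative in the PTF1 complex, or to TATAAA, the letters of the TATA box.
Ctrb1, chr8:111691011-111691210 (-): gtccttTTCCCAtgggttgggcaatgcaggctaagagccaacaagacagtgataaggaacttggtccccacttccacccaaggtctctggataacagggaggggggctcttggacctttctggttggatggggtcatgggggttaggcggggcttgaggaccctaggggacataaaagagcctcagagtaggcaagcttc
Cel, chr2:28563404-28563603 (-): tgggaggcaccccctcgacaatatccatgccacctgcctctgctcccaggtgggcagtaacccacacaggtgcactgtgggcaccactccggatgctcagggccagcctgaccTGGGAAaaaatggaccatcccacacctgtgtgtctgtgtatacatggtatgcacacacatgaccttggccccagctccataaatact
Rnase1, chr14:51146768-51146967 (-): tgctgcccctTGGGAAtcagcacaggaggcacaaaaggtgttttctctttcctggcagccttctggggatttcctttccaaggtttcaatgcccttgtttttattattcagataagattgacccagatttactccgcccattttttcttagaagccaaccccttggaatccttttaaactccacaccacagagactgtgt
Cela1, chr15:100687921-100688120 (-): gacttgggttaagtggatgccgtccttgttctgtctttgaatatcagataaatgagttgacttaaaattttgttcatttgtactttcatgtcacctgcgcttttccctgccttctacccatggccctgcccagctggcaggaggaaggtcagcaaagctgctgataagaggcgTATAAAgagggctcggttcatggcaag
All 6 members had an entry in this sequence table. In the 250 bases upstream, searched on both strands, TGGGAA occurred in 5 of the 6 members and in 21.6% of all 32851 windows of this length. In Ctrb1 it lay 194 to 189 bases upstream of the start, in Cel 87 to 82, in Rnase1 190 to 185, in Cela2a 85 to 80 and in Cpa1 20 to 15. Cela1 had no TGGGAA in this window and was the member with TATAAA, 27 to 22 bases upstream, against 12.4% of all windows. The E-box CANNTG, the letters bound by basic helix-loop-helix factors, occurred in 5 of the 6 members and in 66.2% of all windows, with none in Rnase1. GAGGAA, letters bound by PU.1, a transcription factor of macrophages and other myeloid cells, occurred in Cela1, 60 to 55 bases upstream, and in Cela2a, 62 to 57 bases upstream, against 23.3% of all windows. Such matches describe letters and not binding sites, and none of the searched motifs overlapped in these positions.

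**Figure D1:**
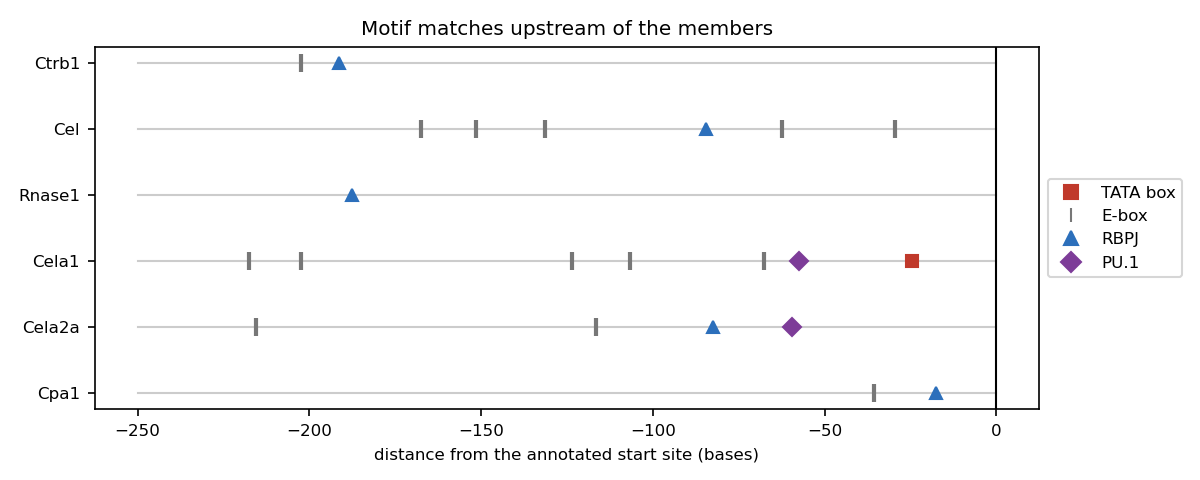
Positions of motif matches in the 250 bases upstream of the annotated start of each member, with distance from the start in bases on the horizontal axis. Rows are the 6 members, symbols mark the middle of each match, and blue triangles (TGGGAA) appear in every row but that of Cela1, which has the red square (TATAAA).

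The values are linear probe-set signals as the authors deposited them, and differences are on the log2 scale after adding 4.8 to each signal, with the fitted standard error after ±. A call means an adjusted p under 0.05 in limma after Benjamini-Hochberg adjustment over 9319 tested probe sets. All 5 measured members passed the filter on low values, which asked for a signal over 17.3 on at least 2 arrays. Rnase1 passed it on 4 arrays, all of wild-type CD80hi cells or unfractionated mTEC, so its passing already required a difference. Every array had a 2%-trimmed mean of 100.1, and the Pearson r between the arrays of one group, taken over probe sets, was between 0.896 and 0.966. Signals of different probe sets are not compared with each other. The Aire probe set gave 1589 and 1385 in knockout CD80hi cells and 1829 and 1704 in wild-type CD80hi cells. The sources used here do not place that probe set relative to the deletion, so it checks nothing, and knockout means labelled as knockout.

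Ctrb1, the chymotrypsinogen gene, gave signals of 58.4 and 101.4 in knockout CD80hi cells, against 229 and 216 in wild-type CD80hi cells. In CD80lo cells it gave 58.2 and 64.2 in knockout and 59.5 and 62.2 in wild-type samples. Unfractionated mTEC gave 166 and 180, macrophages 64.2 and 80.7, dendritic cells 67.7 and 76.8, and cTEC 49.4 and 52.0. Whether the signal of this probe set includes related genes was not tested. Wild-type CD80hi cells and unfractionated mTEC stood above all other groups and did not overlap each other. The knockout CD80hi arrays overlapped the macrophages, the dendritic cells and the CD80lo cells of both genotypes. Ctrb1 averaged 79.9 ± 30.4 in knockout CD80hi cells and 223 ± 8.98 in wild-type CD80hi cells (SD, n = 2 each), a fall of -1.47 ± 0.30 (adjusted p = 0.0142). It was the 1 member of 5 called in this comparison, where 3.05% of all tested probe sets were called. The call was lost without knockout CD80hi array 1 (-1.10, adjusted p = 0.161), without wild-type CD80hi array 1 (adjusted p = 0.153) or array 2 (adjusted p = 0.106), without array 1 of both knockout groups (adjusted p = 0.144) and in a fit of only these 4 arrays (adjusted p = 0.0902). All of these kept the direction.

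Between the wild-type fractions Ctrb1 averaged 223 ± 8.98 in CD80hi and 60.9 ± 1.91 in CD80lo cells (SD, n = 2 each), a rise of 1.79 ± 0.30 (adjusted p = 0.0012) that kept its call under every alternative run. In this comparison 12.7% of all tested probe sets were called. Between the knockout fractions the difference was 0.31 ± 0.30 (adjusted p = 0.614), with a 95% interval of -0.34 to 0.96, and the arrays overlapped. Between knockout and wild-type CD80lo cells it was 0.01 ± 0.30 (adjusted p = 0.999), with an interval of -0.64 to 0.66. The test of whether the knockout difference itself differed between CD80hi and CD80lo cells gave -1.48 ± 0.43 (adjusted p = 0.149), which did not pass.

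Cel, the carboxyl ester lipase gene, had signals of 43.3 and 81.6 in knockout CD80hi cells, against 138 and 134 in wild-type CD80hi cells. The CD80lo samples gave 52.8 and 77.2 in knockout and 57.1 and 57.1 in wild-type cells. Unfractionated mTEC gave 116 and 103, and the macrophage, dendritic and cTEC arrays lay between 30.6 and 68.0. Wild-type CD80hi cells were highest, unfractionated mTEC next, and neither overlapped any other group, while the remaining groups overlapped their neighbours. Both knockout CD80hi arrays lay below both wild-type CD80hi arrays, but the difference of -1.13 ± 0.38 did not pass (adjusted p = 0.178). Between the wild-type fractions the CD80hi to CD80lo difference was 1.18 ± 0.38 and lay just outside the threshold (adjusted p = 0.056). It passed under quantile normalisation (adjusted p = 0.0272), with the larger constant of 17.3 (adjusted p = 0.0383), with the stricter filter (adjusted p = 0.0499) and in a fit of only these arrays (adjusted p = 0.00395). The difference between knockout fractions was -0.09 ± 0.38 (adjusted p = 0.927).

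Rnase1, the ribonuclease gene, was dim throughout, with signals of 8.0 and 0.3 in knockout CD80hi cells against 24.2 and 19.7 in wild-type CD80hi cells. Knockout CD80lo cells gave 2.0 and 0.4, and wild-type CD80lo cells 0.8 and 3.9. Unfractionated mTEC gave 18.5 and 18.2, while the macrophage, dendritic and cTEC arrays lay between 0.2 and 5.3. Wild-type CD80hi cells and unfractionated mTEC thus stood above the other 12 arrays, all of which were under 10. Rnase1 passed the filter only on these wild-type CD80hi and mTEC arrays, so its passing already required a difference. The wild-type fractions averaged 21.9 ± 3.18 in CD80hi and 2.35 ± 2.19 in CD80lo cells (SD, n = 2 each), a rise of 1.93 ± 0.48 (adjusted p = 0.0149). That call was lost with a constant of 1 (adjusted p = 0.072) and without wild-type CD80hi array 1 (adjusted p = 0.117) or 2 (adjusted p = 0.0675) or wild-type CD80lo array 1 (adjusted p = 0.144). In knockout CD80hi cells the difference from wild type was -1.72 ± 0.48 and did not pass (adjusted p = 0.0781). It passed with the larger constant (-0.89, adjusted p = 0.0231), without a filter (adjusted p = 0.043), in the fit without a variance trend (adjusted p = 0.0458) and without knockout CD80hi array 1 (-2.39, adjusted p = 0.0395). The difference between knockout fractions was 0.44 ± 0.48 (adjusted p = 0.668).

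**Figure D2:**
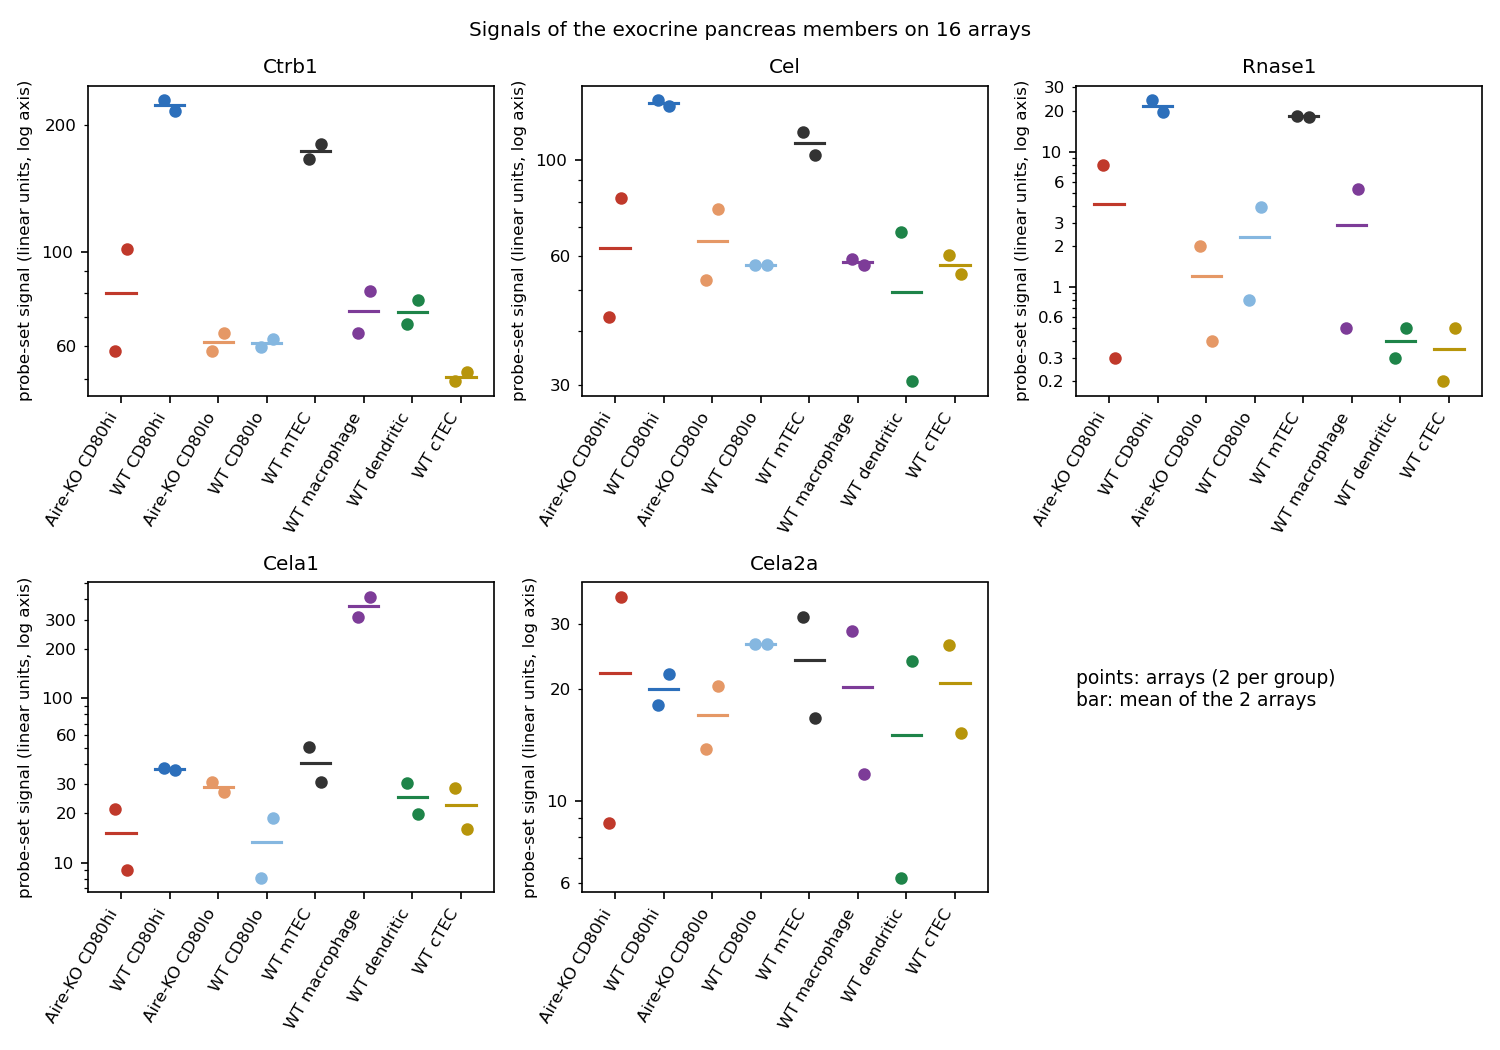
Probe-set signal of each measured member (linear units on a log axis) by group, with 1 point per array and a bar at the mean of the 2 arrays of a group. Ctrb1, Cel and Rnase1 are highest in wild-type CD80hi cells and next in unfractionated mTEC, Cela1 is highest in macrophages at 313 and 414, and Cela2a spreads between 6.2 and 35.6 with no group apart.

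Cela1, an elastase gene, followed another pattern. Its signal was 313 and 414 on the macrophage arrays, against 50.3 and 30.8 in unfractionated mTEC, 30.4 and 19.8 in dendritic cells and 28.6 and 16 in cTEC. Among the CD80-sorted cells it was 21.1 and 9.1 in knockout CD80hi, 37.7 and 36.5 in wild-type CD80hi, 31.1 and 27.0 in knockout CD80lo and 8.1 and 18.7 in wild-type CD80lo samples. Macrophages stood apart from every other group, whereas the arrays of all other groups lay between 8.1 and 50.3. Cela1 averaged 40.5 ± 13.8 in unfractionated mTEC and 363 ± 71.3 in macrophages (SD, n = 2 each), a difference of -3.04 ± 0.42 (adjusted p = 0.000114). Macrophages exceeded dendritic cells by 3.63 ± 0.42 (adjusted p = 7.54e-05) and cTEC by 3.79 ± 0.42 (adjusted p = 4.25e-05), comparisons that were added after the signals had been seen and in which 9.25% and 10.8% of tested probe sets were called. These 3 calls held under each of the 13 alternatives run for them.

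In the CD80-sorted cells Cela1 passed no test. The wild-type fractions averaged 37.1 ± 0.849 in CD80hi and 13.4 ± 7.50 in CD80lo cells (SD, n = 2 each), a difference of 1.27 ± 0.42 (adjusted p = 0.0671). It passed in a fit of only these arrays (adjusted p = 0.0292). Knockout CD80hi cells differed from wild-type CD80hi cells by -1.14 ± 0.42 (adjusted p = 0.244), and knockout CD80lo cells from wild-type CD80lo cells by 0.96 ± 0.42 (adjusted p = 0.861). The difference between these changes was -2.10 ± 0.60 (adjusted p = 0.135).

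Macrophage markers were also highest on the macrophage arrays. The summed signal of the 9 measured macrophage markers was 11175 to 19843 on the macrophage arrays, 2701 to 3074 in dendritic cells, 854 to 1026 in unfractionated mTEC and 196 to 379 in cTEC. It was 775 to 881 in knockout CD80hi, 987 to 1134 in wild-type CD80hi, 346 to 356 in knockout CD80lo and 169 to 186 in wild-type CD80lo cells. Of the 9 markers, 3 were called higher in wild-type CD80hi than in wild-type CD80lo cells, namely Lyz2 (lysozyme) by 3.79 ± 0.45 (adjusted p = 8.46e-05), Mrc1 (the mannose receptor) by 4.02 ± 0.72 (adjusted p = 0.0017) and Csf1r (the receptor of a macrophage growth factor) by 2.08 ± 0.38 (adjusted p = 0.00213). The defining surface marker Adgre1 gave 4.3 and 14.6 in wild-type CD80hi and 2.3 and 2.4 in wild-type CD80lo cells, against 507 and 1199 in macrophages. None of the 9 was listed at 0. The part of these cells in the Cela1 differences among the CD80-sorted groups was not tested, and in such sorted RNA more cells of a type and more RNA per cell cannot be told apart.

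**Figure D3:**
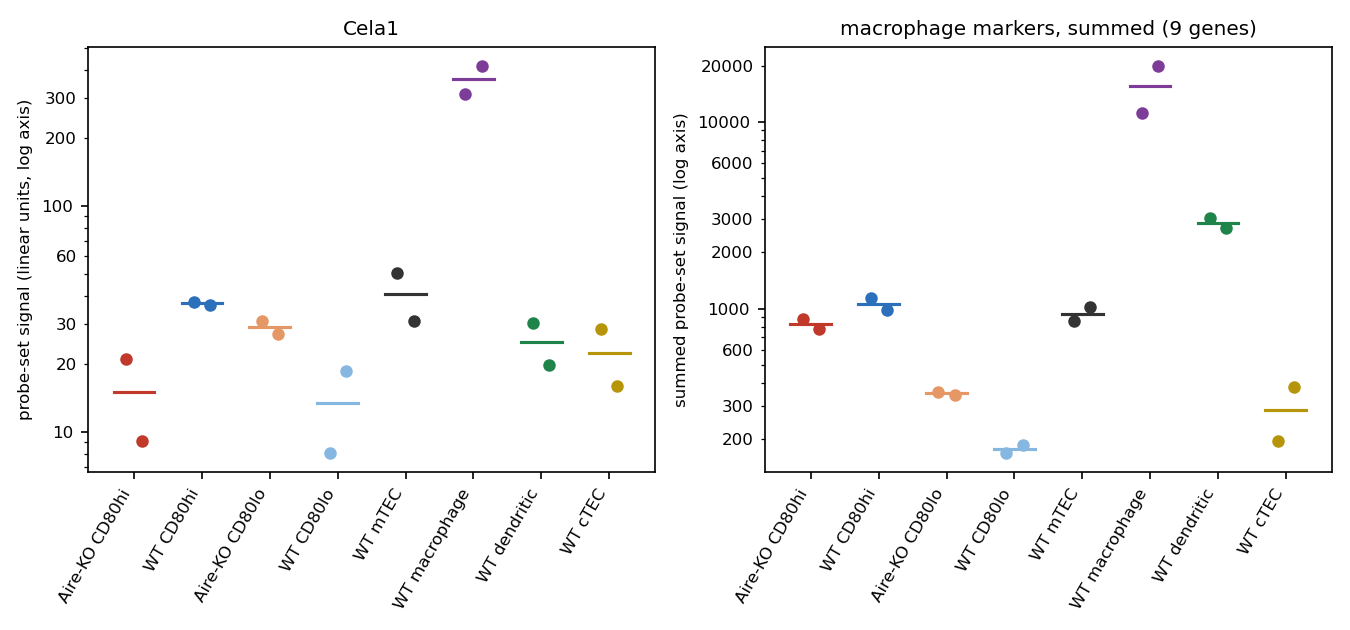
Signal of Cela1 (left) and summed signal of 9 macrophage markers (right) on each array, both in linear units on log axes, by group with a bar at the group mean. Macrophage arrays are highest in both panels, while dendritic cells, next in the marker sum at 2701 to 3074, lie among the other groups for Cela1.

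Cela2a, the other elastase gene, showed no group apart. Its signal lay between 6.2 and 35.6 with a median of 21.2 over the 16 arrays, and the lowest and the highest of these were a dendritic cell array and a knockout CD80hi array. Knockout CD80hi cells gave 8.7 and 35.6, against 18.2 and 22.0 in wild-type CD80hi cells. The CD80lo samples gave 13.8 and 20.4 in knockout and 26.5 and 26.5 in wild-type cells. Unfractionated mTEC gave 31.4 and 16.7, macrophages 28.7 and 11.8, dendritic cells 6.2 and 23.9, and cTEC 26.4 and 15.3. Each group overlapped its neighbours in the order of the means. Its log2 differences in the 8 comparisons lay between -0.53 and 0.65, and the smallest adjusted p was 0.48. The 95% interval for knockout against wild-type CD80hi cells was -1.30 to 1.13, so a fall of up to 1.30 or a rise of up to 1.13 could not be told from none at this signal.

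Against the other sorted populations, unfractionated mTEC were higher in Ctrb1 and Rnase1. Ctrb1 averaged 173 ± 9.97 in mTEC and 50.7 ± 1.84 in cTEC (SD, n = 2 each), a difference of 1.68 ± 0.30 (adjusted p = 0.00146), and Rnase1 differed by 2.17 ± 0.48 (adjusted p = 0.00606). These were the 2 of 5 members called between mTEC and cTEC, where 15.4% of all tested probe sets were called. Without Rnase1, whose passing of the filter already required a difference, the counts were 1 of 4 members here and 2 of 4 against dendritic cells. Against dendritic cells 3 members of 5 were called higher, Ctrb1 by 1.21 ± 0.30 (adjusted p = 0.00875), Rnase1 by 2.15 ± 0.48 (adjusted p = 0.00398) and Cel by 1.17 ± 0.38 (adjusted p = 0.0355), where 24.3% of all tested probe sets were called and 16.8% were called higher. Dendritic cell array 2 gave the lowest Cel signal of the series, 30.6, and without it the Cel difference was 0.65 (adjusted p = 0.302). The Cel call was also lost without either mTEC array (adjusted p = 0.156 and 0.103), under quantile normalisation (adjusted p = 0.0766) and in a fit of only these arrays (adjusted p = 0.114), and that of Ctrb1 without dendritic cell array 1 (adjusted p = 0.0586) or mTEC array 2 (adjusted p = 0.0632). Cel lay 0.88 ± 0.38 above cTEC (adjusted p = 0.154) and 0.86 ± 0.38 above macrophages (adjusted p = 0.131) without passing.

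Against macrophages, Ctrb1 was higher in mTEC by 1.21 ± 0.30 (adjusted p = 0.0094) and Rnase1 by 1.66 ± 0.48 (adjusted p = 0.0216), while Cela1 was lower as given above. These were 3 of 5 members, where 22.0% of all tested probe sets were called. Without Rnase1, 1 of the other 4 was called higher and 1 lower. The Ctrb1 call was lost without macrophage array 1 (adjusted p = 0.0595) or mTEC array 2 (adjusted p = 0.0665) and in a fit of only these arrays (adjusted p = 0.0848). That of Rnase1 was lost without macrophage array 1 (adjusted p = 0.189) or either mTEC array (adjusted p = 0.0917 and 0.0919), with a constant of 1 (adjusted p = 0.0715) and in a fit of only these arrays (adjusted p = 0.0572). The summed signal of 5 thymic epithelial markers was 3136 to 3516 in mTEC, against 2047 on macrophage array 1 and 294 on macrophage array 2. Thymocyte markers, summed over 7 genes, gave 185 to 198 in mTEC, against 1660 to 4914 in macrophages, 1954 to 2219 in dendritic cells and 2654 to 4582 in cTEC. The part of these markers in the differences was not tested.

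**Figure D4:**
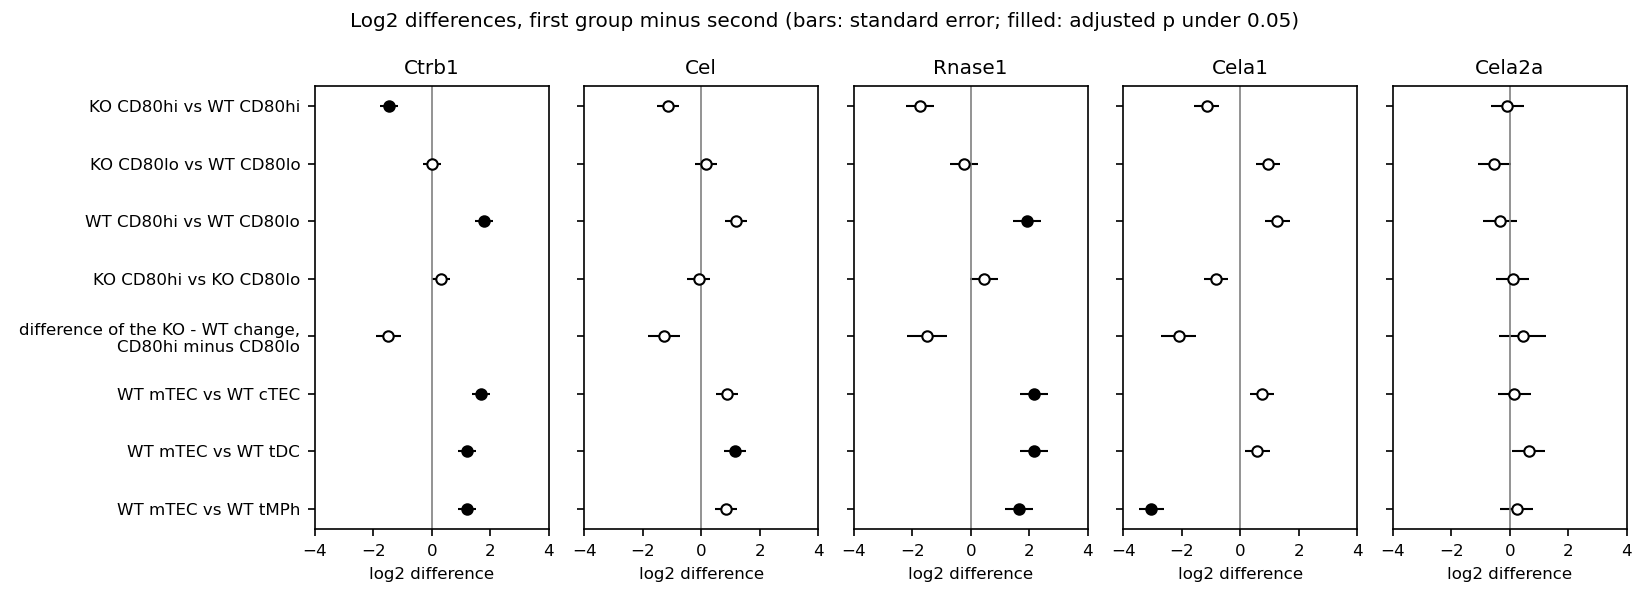
Log2 differences of each measured member in 8 comparisons, as the first group minus the second, with the standard error of the fit as bars and filled points for an adjusted p under 0.05. Ctrb1 is filled in 5 comparisons, Rnase1 in 4, Cel and Cela1 in 1 each and Cela2a in none, and the Cela1 point for mTEC against macrophages lies farthest out at -3.04.

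Over the 5 measured members, the median difference of knockout from wild-type CD80hi cells was -1.14, against -0.05 over all tested probe sets. Besides the 1 called member, 3 others had an unadjusted p under 0.05, so 4 of 5 did, against 11.5% of all probe sets. For wild-type CD80hi against CD80lo cells the median was 1.27 against -0.04 over all probe sets, 2 members were called and 4 of 5 had an unadjusted p under 0.05, against 23.8% of all. For knockout against wild-type CD80lo cells limma called 0 of 5 members, where 0.322% of all probe sets were called, and 1 had an unadjusted p under 0.05, against 5.55% of all. The median there was 0.01, against -0.05 over all. Between the knockout fractions 0 of 5 members were called by limma and 0 had an unadjusted p under 0.05, where 12.8% of all probe sets were called and 24.6% had such a p. The median there was 0.11, against -0.03 over all. The genotype-by-fraction test called 0 of 5 members and 1.30% of all probe sets, with 4 of 5 members against 8.32% of all at an unadjusted p under 0.05. The median was -1.48, against 0.01 over all. Without Rnase1, which passed the filter through its high groups, the median of the other 4 members was -1.13 for knockout against wild-type CD80hi cells and 1.23 for wild-type CD80hi against CD80lo cells, with 1 of 4 called in each. Rnase1 is also among the 4 of 5 with an unadjusted p under 0.05 in these comparisons and in the genotype-by-fraction test. The comparisons of CD80-sorted cells share arrays, so their counts are not independent of each other.

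The members varied unequally together over the 16 arrays. Pearson correlations of log2 signal were 0.861 for Ctrb1 with Rnase1, 0.835 for Ctrb1 with Cel and 0.708 for Cel with Rnase1. Cela1 correlated with these 3 at 0.05 to 0.15, and the correlations of Cela2a with the other members lay between -0.13 and 0.19. These values describe arrays that fall into groups and share their scaling.

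Other exocrine pancreas genes were read from a list of 31 enzymes and secretory proteins, of which 16 had a probe set of their own and 13 passed the filter. In knockout against wild-type CD80hi cells 4 of the 13 fell, 0 rose and 9 did not pass, with a median of -0.97, and 2.88% of all tested probe sets fell. Sycn, Zg16 and Dnase1 passed the filter only on arrays of wild-type CD80hi cells or unfractionated mTEC, so their passing already required a difference. Among the other 10 genes 2 fell, with a median of -0.71. Tff2 is 1 of these 2. Outside wild-type CD80hi cells and mTEC it was over the filter only on knockout CD80hi array 1, at 19.4. Its passing thus also rested on the groups where it was high. Without any filter, which brings in all 16 measured genes, 5 fell. Klk1, tissue kallikrein, gave 55.5 and 45.4 in knockout and 478 and 353 in wild-type CD80hi cells, a difference of -2.92 ± 0.55 (adjusted p = 0.00755). Tff2, a trefoil peptide best known from gastric mucus, gave 19.4 and 12.2 in knockout and 134.5 and 146 in wild-type CD80hi cells (-2.84 ± 0.34, adjusted p = 0.00038). Neither gene is restricted to the pancreas. Sycn, syncollin of the zymogen granule membrane, gave 1.5 and 2.8 in knockout and 34.8 and 21.2 in wild-type CD80hi cells (-2.21 ± 0.37, adjusted p = 0.00435). Zg16, a zymogen granule protein that the intestine also makes, gave 10.8 and 8.8 in knockout and 50.4 and 55.0 in wild-type CD80hi cells (-1.98 ± 0.37, adjusted p = 0.00765). In all 4 genes the knockout arrays lay below the wild-type arrays. Over the alternatives run, the Klk1 call was lost in 5 and kept in 9, and that of Zg16 lost in 3 and kept in 11. The Sycn call was lost in 1 and kept in 12, and that of Tff2 was kept in all 14. When single arrays were left out the number that fell ranged between 1 and 4, with 1 called without wild-type CD80hi array 1 and 2 without wild-type CD80hi array 2 or knockout CD80hi array 2.

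Between the wild-type fractions 5 of the 13 were higher in CD80hi cells, 0 were lower and 8 did not pass, with a median of 0.997, and 7.98% of all tested probe sets were higher. Without Sycn, Zg16 and Dnase1 the count was 3 of 10, Tff2 still among them, and the median 0.40. Without any filter the count was 6 of 16. The 5 called genes were Tff2 (2.91 ± 0.34, adjusted p = 7.16e-05), Sycn (2.19 ± 0.37, adjusted p = 0.00128), Zg16 (1.96 ± 0.37, adjusted p = 0.00259), Klk1 (2.39 ± 0.55, adjusted p = 0.00912) and the trypsinogen gene Prss2 (2.59 ± 0.65, adjusted p = 0.0166). Prss2 gave 95.4 and 96.9 in wild-type CD80hi and 5.7 and 21.9 in wild-type CD80lo cells, and in knockout CD80hi cells 13.1 and 26.2, a difference from wild type that did not pass (-2.10 ± 0.65, adjusted p = 0.13). The Klk1 call was lost without any 1 of the arrays compared except wild-type CD80hi array 2, and the Prss2 call without either wild-type CD80hi array or wild-type CD80lo array 1 (adjusted p of up to 0.19). The count was 3 with a constant of 1 and without wild-type CD80hi array 1 or wild-type CD80lo array 1. The probe sets of Klk1 and Prss2 carry a suffix that marks probes shared with similar sequences, so their signal may include related kallikreins or trypsinogens. The probe set of the insulin gene Ins2, given below, carries the same suffix. Those of the member Ctrb1 and of Ctrl carry a different suffix, and whether their signal includes related genes was not tested. Among the knockout fractions Tff2 was higher in CD80hi cells (1.52 ± 0.34, adjusted p = 0.00808) and Rnase4, a secreted ribonuclease made in many tissues, was lower (-2.92 ± 0.44, adjusted p = 0.000566). The Tff2 call was lost in a fit of only these arrays and without knockout CD80hi array 1, knockout CD80lo array 2 or array 1 of both groups, with an adjusted p of up to 0.124. In knockout against wild-type CD80lo cells limma called 0 of 13, with 1 at an unadjusted p under 0.05.

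Unfractionated mTEC exceeded cTEC in 5 of the 13 genes, dendritic cells in 8 and macrophages in 7, and none was called lower in mTEC. Of all tested probe sets, 11.1%, 16.8% and 14.6% were called higher in mTEC in these 3 comparisons. Without Sycn, Zg16 and Dnase1 the counts were 3, 6 and 4 of 10, each still with Tff2. Klk1, Tff2, Sycn, Zg16 and Prss2 were called in all 3 comparisons, though Prss2 lost its call against cTEC without cTEC array 1 (adjusted p = 0.0963). Tff2 gave the largest of these differences against dendritic cells, with 159 and 139 in mTEC and 1.5 and 2.7 in dendritic cells (4.48 ± 0.34, adjusted p = 8.97e-07). Klk1 gave 453 and 344 in mTEC and 1.3 and 15.4 in cTEC (5.17 ± 0.55, adjusted p = 2.18e-05). Amy1, an amylase gene of salivary gland and liver, gave 45.1 and 15.1 in mTEC and 118.5 and 35.1 in cTEC, where it was brightest. It passed, of these 3 comparisons, against dendritic cells (2.51 ± 0.56, adjusted p = 0.00394), where it was 0.8 and 0.7, a call lost without mTEC array 1 (adjusted p = 0.0654). The colipase gene Clps and the chymotrypsin-like protease gene Ctrl, both with abundant acinar transcripts, were not called in any of the 8 comparisons. Ctrl gave 89.7 and 106 in mTEC, above the cTEC, dendritic and macrophage arrays, which lay between 38.0 and 75.7. Clps gave 10.1 and 81.2 in mTEC, against 9.7 to 32.3 on those arrays. On the CD80-sorted arrays Clps lay between 58.6 and 94.8 and Ctrl between 100.6 and 159.

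**Figure D5:**
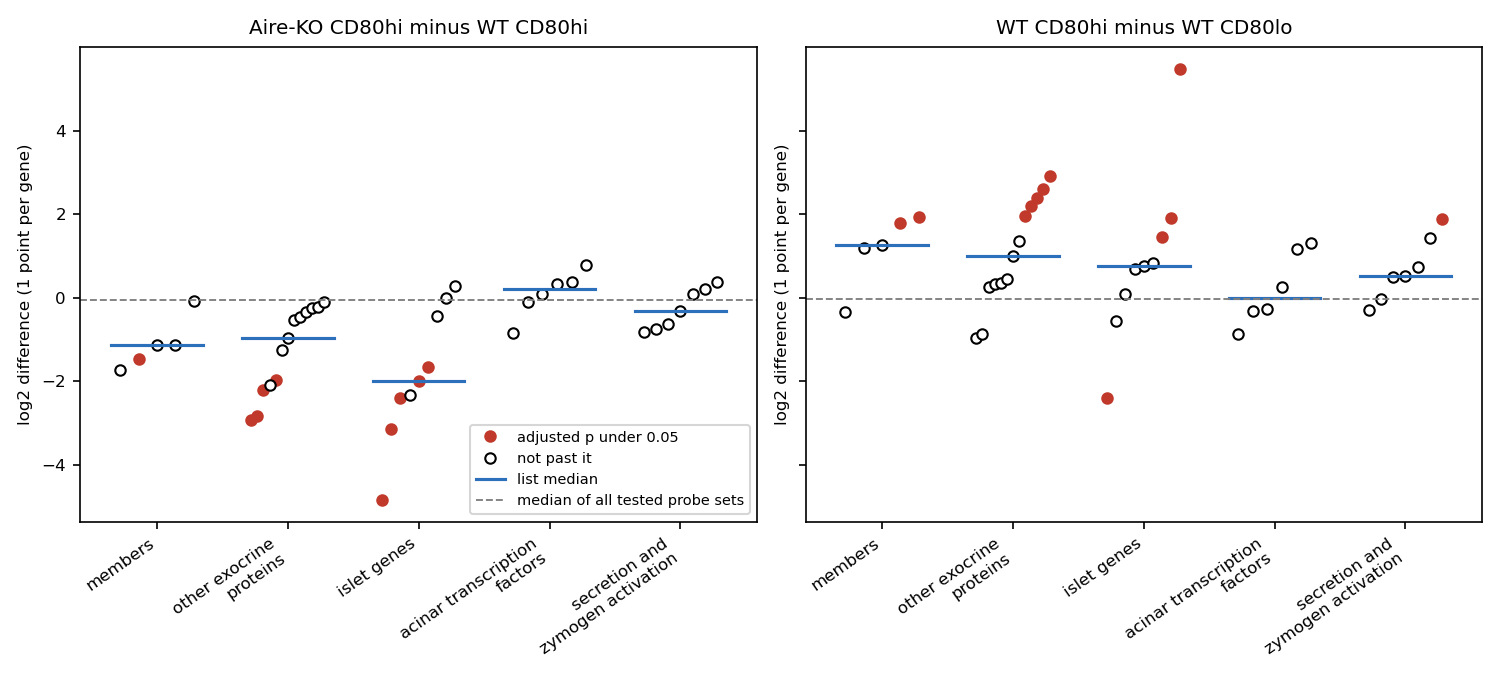
Log2 differences of knockout minus wild-type CD80hi cells (left) and of wild-type CD80hi minus CD80lo cells (right), with 1 point per tested gene, red where the adjusted p is under 0.05, a blue bar at each list's median and a dashed line at the median of all tested probe sets. The members have medians of -1.14 and 1.27, the other exocrine proteins -0.97 and 0.997, the islet genes -2.00 and 0.76, and the tested acinar transcription factors 0.21 and -0.01. Some plotted genes passed the filter only on wild-type CD80hi or mTEC arrays, so their passing already required a difference. Without them the medians were -1.13 and 1.23 for members, -0.71 and 0.40 for other exocrine proteins and -1.82 and 0.72 for islet genes.

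Trypsinogen and pancreatic amylase genes were also covered by 5 probe sets that the annotation assigns to several symbols, which cannot be told apart. The one assigned to 4 symbols of the trypsin family gave 1.0 and 3.0 in knockout CD80hi cells, against 80.3 and 61.0 in wild-type CD80hi cells (-3.48 ± 0.41, adjusted p = 0.000366). It passed the filter only on arrays of wild-type CD80hi cells and mTEC, so its passing already required a difference. It gave 13.7 and 4.7 in knockout CD80lo cells, against 3.5 and 2.4 in wild-type CD80lo cells, and 67.1 and 55.0 in unfractionated mTEC. The wild-type fractions differed by 3.28 ± 0.41 (adjusted p = 0.000116). The one assigned to 2 trypsin symbols gave 36.1 and 40.7 in wild-type CD80hi and 8.1 and 3.8 in wild-type CD80lo cells (2.03 ± 0.43, adjusted p = 0.00543), and the one assigned to 3 gave 100.6 and 118.5 in wild-type CD80hi and 20.8 and 32.2 in wild-type CD80lo cells (1.89 ± 0.35, adjusted p = 0.00214). The first of these also passed the filter only on arrays of wild-type CD80hi cells and mTEC, and its call was lost without wild-type CD80hi array 2 (adjusted p = 0.0532) or wild-type CD80lo array 2 (adjusted p = 0.0729). Their differences between knockout and wild-type CD80hi cells, -1.37 ± 0.43 (adjusted p = 0.13) and -0.98 ± 0.35 (adjusted p = 0.222), did not pass. The amylase probe set that passed the filter, assigned to 5 symbols, was over it on 3 arrays, the 2 of mTEC and knockout CD80hi array 2. Its passing thus rested on mTEC, where it was high. It gave 27.5 and 18.4 in mTEC and 7.3 and 5.2 in cTEC (1.32 ± 0.36, adjusted p = 0.0235). That call was lost in a fit of only these arrays (adjusted p = 0.0667), without cTEC array 1 (adjusted p = 0.0679) or 2 (adjusted p = 0.145) and without mTEC array 1 (adjusted p = 0.179). Its signals were 11.9 and 18.2 in knockout and 10.2 and 10.3 in wild-type CD80hi cells (0.38 ± 0.36, adjusted p = 0.859).

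The tested transcription factors of acinar cells passed no test between knockout and wild-type CD80hi cells. Of 14 listed factors, 10 had a probe set and 6 passed the filter, namely Foxa2, Gata4, Nr5a2, Rbpj, Tcf3 and Xbp1. Rbpjl, the acinar relative of Rbpj, lay between 2.4 and 16.7 and Pdx1 between 1 and 9.5, so neither was tested. For knockout against wild-type CD80hi cells limma called 0 of 6. None of the 6 had an unadjusted p under 0.05 there, and the median was 0.21. Between the wild-type fractions 0 of 6 were called, with 3 at an unadjusted p under 0.05 and a median of -0.01. Rbpj, which binds the TGGGAA letters shown above, gave 110 and 227 in knockout CD80hi and 27.5 and 72.7 in knockout CD80lo cells (1.71 ± 0.51, adjusted p = 0.0409), and this call had an adjusted p of up to 0.335 under the alternatives. Foxa2, a factor of endoderm-derived tissues, was higher in mTEC, at 20.8 and 28.2, than in dendritic cells, at 2.8 and 5.2 (1.74 ± 0.56, adjusted p = 0.0353), and than in macrophages, at 3.5 and 4.4 (1.73 ± 0.56, adjusted p = 0.0389). Without any 1 of the arrays compared neither Foxa2 call passed, and under the alternatives the adjusted p reached 0.177 against dendritic cells and 0.189 against macrophages. Of 10 genes for secretion and zymogen activation, 7 were tested. Cckar, the cholecystokinin receptor through which acinar secretion is triggered, gave 23.1 and 27.7 in wild-type CD80hi and 5.6 and 1.6 in wild-type CD80lo cells (1.88 ± 0.51, adjusted p = 0.0246), a call whose adjusted p reached 0.212 under the alternatives. Cckar passed the filter on 3 arrays, all of wild-type CD80hi cells or mTEC, so its passing already required a difference. Ctsb, the lysosomal protease that can activate trypsinogen, gave 467 and 457 in mTEC and 2700 and 3082 in macrophages (-2.63 ± 0.34, adjusted p = 5.89e-05). In knockout against wild-type CD80hi cells 0 of these 7 were called by limma, with 1 at an unadjusted p under 0.05.

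Of 9 tested islet genes, 5 were lower in knockout than in wild-type CD80hi cells, with a median of -2.00, where 2.88% of all tested probe sets were lower. The count was 2 without knockout CD80hi array 1 or either wild-type CD80hi array, and 3 without array 1 of both knockout groups. The insulin gene Ins2 gave 0.3 and 12.6 in knockout and 294 and 238 in wild-type CD80hi cells (-4.84 ± 0.50, adjusted p = 0.000126). Ins2 passed the filter only on the wild-type CD80hi and mTEC arrays, so its passing already required a difference, and the size of the difference depends on the added constant. Without Ins2 the count was 4 of 8, with a median of -1.82. Whether the islet and exocrine differences were unequal was not tested.

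The genes most like each member were ranked by Pearson r of log2 signal over the 16 arrays and over the 8 group means. Ctrb1 was nearest over the arrays to the kallikrein gene Klk1b8 (r = 0.967), the calcitonin receptor gene Calcr (r = 0.963) and the major urinary protein gene Mup5 (r = 0.963). Klk1b8 averaged 7.8 in knockout and 129 in wild-type CD80hi cells, arrays on which it was also ranked, so these values are no separate support. Over the group means its nearest were the lens crystallin gene Cryaa (r = 0.982), Klk1b8 (r = 0.981) and Mup3 (r = 0.98). Cel was nearest over the arrays to Reg1, a pancreatic secretory protein (r = 0.939), the lectin gene Clec4f (r = 0.934) and the carbonic anhydrase gene Car4 (r = 0.929). Reg1 averaged 20.9 in knockout and 84.0 in wild-type CD80hi cells, again on arrays used for the ranking. Over the group means Cel was nearest to Crabp1 (r = 0.99), Krt84 (r = 0.985) and Capn9 (r = 0.983). Rnase1 was nearest over the arrays to the plasma protein gene Itih4 (r = 0.933), the prodynorphin gene Pdyn (r = 0.931) and Akr1c21 (r = 0.923), and over the group means to the keratin gene Krt86 (r = 0.998), Zg16 (r = 0.988) and the galanin gene Gal (r = 0.987).

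Cela1 was nearest over the arrays to Nr1h3, the liver X receptor alpha gene (r = 0.94), Cd5l, a secreted protein of macrophages (r = 0.938), and Il1a, the interleukin-1 alpha gene (r = 0.936). In macrophages Nr1h3 averaged 549, Cd5l 437 and Il1a 348, and in each of the other 7 groups none of the 3 averaged above 48.9. Over the group means its nearest were Il1a (r = 0.986), Spns1 (r = 0.979) and Srxn1 (r = 0.975). Cela2a had lower values over the arrays, with the mast cell tryptase gene Tpsb2 (r = 0.718), Ddx1 (r = 0.713) and Tbce (r = 0.709) nearest, and over the 8 group means Ndufaf4 (r = 0.97), Serbp1 (r = 0.929) and Dnaja1 (r = 0.928). These r are the highest among all tested genes and describe likeness on these arrays only.

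Summed markers of other cells differed between some of these groups, though the genes of a sum did not all go the same way. Dendritic cell markers, summed over 6 genes, gave 904 to 984 in knockout and 620 to 701 in wild-type CD80hi cells, and limma called 0 of 6, with 1 at an unadjusted p under 0.05. H2-DMb2 gave 435 and 386 in knockout and 238 and 230 in wild-type CD80hi cells, and Ccr7 214 and 285 against 107 and 138. Zbtb46 gave 40.2 and 44.6 against 29.3 and 25.9. Itgax gave 37.3 and 47.7 against 46 and 61.8, and Flt3 237 and 105 against 181 and 225. The arrays of Itgax, Flt3 and Xcr1 overlapped. Macrophage markers were called in 0 of 9 between these groups, with 3 at an unadjusted p under 0.05. Fibroblast markers, summed over 5 genes, gave 720 to 846 in knockout and 472 to 565 in wild-type CD80hi cells, and 986 to 1263 in wild-type CD80lo cells. Most of that sum was Dcn, with 514 and 560 in knockout CD80hi, 292 and 232 in wild-type CD80hi and 1005 and 695 in wild-type CD80lo cells. Col1a1 went the other way, with 19.3 and 56.4 in knockout and 72.4 and 74.4 in wild-type CD80hi cells. The CD80hi arrays of Col1a2, Col3a1 and Pdgfra overlapped. Between the CD80hi groups limma called 0 of 5, with 1 at an unadjusted p under 0.05. Medullary epithelial markers, summed over 7 genes including Aire and Cd80, gave 3214 to 4983 in knockout and 4664 to 4914 in wild-type CD80hi cells, so the ranges overlapped. The part of these shifts in the member differences was not tested.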

How the data were processed

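Total RNA of sorted mouse thymic cells was measured on 16 one-colour oligonucleotide arrays, 8 groups of 2, grouped by the titles in the labels. The deposited table holds 1 linear intensity per probe set and array, already scaled by the authors, as equal 2%-trimmed means show. Which program computed it is not given in the sources used here.

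Genes came from the platform annotation, with symbols updated through RefSeq. Of 12422 probe sets that were not controls, 10833 had 1 gene symbol, 396 several and 1193 none listed, and 3103 did not pass the filter. Before log2, 4.8 was added to each signal, which is the 20th percentile over the table. The filter asked for over 17.3, the 40th percentile, on 2 arrays. One limma 3.58.1 model (R 4.3.3, eBayes with trend, 8 residual and 5.97 prior degrees of freedom) gave all comparisons, 2-sided. The steps were tested on simulated data with differences planted between knockout and wild-type CD80hi cells. They recovered 6% of planted log2 differences of 1, 68% of those of 2 and 98% of those of 3, with 7 false calls among 143.

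The members and lists were chosen with earlier results of these data known. Named were all members, listed genes past the threshold (at most 6 per comparison) and the 3 genes most like each member. Clps, Ctrl and probe sets of several symbols were chosen after their values were seen. Genes stood by their brightest probe set. Alternatives were quantile normalisation, constants of 1 and 17.3, no filter and one of 50, eBayes without trend, only the groups compared, replicate blocks and each array left out. Added after seeing the data were a fit that left out both knockout arrays numbered 1, blocks within the knockout or unfractionated arrays, and the macrophage comparisons with dendritic cells and cTEC. Only 2 arrays per group limit the precision.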

Additional observations from a re-analysis of the deposited data

Results flagged for a closer look

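The probe set assigned to 4 symbols of the trypsin family met the criterion of an effect that differs between groups. Its difference between knockout and wild-type cells was not the same in CD80hi as in CD80lo cells, by a test of that difference in limma (-4.25 ± 0.58, adjusted p = 0.00264). It gave 1.0 and 3.0 in knockout CD80hi cells, against 80.3 and 61.0 in wild-type CD80hi cells, and 13.7 and 4.7 in knockout CD80lo cells, against 3.5 and 2.4 in wild-type CD80lo cells. The knockout arrays were thus lower in the CD80hi fraction, while in the CD80lo fraction the difference of 0.78 ± 0.41 did not pass (adjusted p = 0.962). It passed the filter on low values only on the arrays of wild-type CD80hi cells and mTEC, the groups where it was high, so its passing already required a difference. In this test 1.30% of all tested probe sets were called. The 4 symbols cannot be told apart on this probe set. No group had over 3 arrays, so single outlying arrays were not looked for.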

How the results depend on the processing

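Between knockout and wild-type CD80hi cells the 1 called member became 2 with the constant of 17.3, with no filter, with eBayes without trend and with a replicate block within the knockout arrays, and 0 in a fit of only the groups compared. Without single arrays it was 0 to 1. Between the wild-type fractions the 2 called members became 1 with a constant of 1, and 4 in a fit of only the groups compared and with the replicate block. Without single arrays they were 1 to 2. The replicate block added Cel (adjusted p = 0.0394) and Cela1 (adjusted p = 0.0435) there. Arrays that share a number in the labels share only that number by the design, and their deviations correlated at 0.17 between the wild-type fractions, 0.166 between knockout and wild-type CD80hi cells, 0.517 between the knockout fractions and 0.279 to 0.526 among the unfractionated groups. The 2 members called between mTEC and cTEC became 1 under quantile normalisation and with the stricter filter, under which Rnase1 was not tested, and were 2 to 2 without single arrays. Against dendritic cells the 3 became 1 under quantile normalisation and 1 to 2 without single arrays. Against macrophages the 3 became 1 in a fit of only the groups compared and 1 to 3 without single arrays. With quantile normalisation the median over all probe sets shifted by 0.11 between knockout and wild-type CD80hi cells and by -0.12, -0.25 and -0.14 in mTEC against cTEC, dendritic cells and macrophages.

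No called difference of a member changed sign. Among those not called, Cela2a between knockout and wild-type CD80hi cells became 0.17 under quantile normalisation and 0.70 without array 1 of both knockout groups, and was -0.88 to 0.70 without single arrays. Between the knockout fractions Cel became 0.015 under quantile normalisation and 0.075 without array 1 of both, and Rnase1 -0.028 without array 1 of both. Cela2a became -0.12 in mTEC against cTEC and -0.079 against macrophages under quantile normalisation. Without single arrays the knockout minus wild-type CD80lo difference was -0.10 to 0.41 for Cel, -0.059 to 0.072 for Ctrb1 and -0.55 to 0.087 for Rnase1. The difference between knockout fractions was -0.51 to 0.33 for Cel, -0.061 to 0.69 for Ctrb1, -0.22 to 1.11 for Rnase1 and -0.68 to 0.90 for Cela2a. Cela2a was -0.35 to 1.23 in the genotype-by-fraction test, and -0.22 to 0.53, -0.041 to 1.34 and -0.26 to 0.75 in mTEC against cTEC, dendritic cells and macrophages. The causes were not tested. Of the members' differences under all alternatives, 495 kept direction and side of the threshold, 25 changed sign, 24 lost and 13 gained a call.

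Over all probe sets the calls were 284 (78 to 363) between knockout and wild-type CD80hi cells, 30 (8 to 51) between CD80lo cells, 1186 (623 to 2456) between wild-type fractions, 1193 (523 to 1645) between knockout fractions and 121 (35 to 216) in the genotype-by-fraction test. They were 1434 (858 to 1812), 2268 (1543 to 2728) and 2048 (1360 to 2492) in mTEC against cTEC, dendritic cells and macrophages. Low signal limits Rnase1, which was under 10 on 12 arrays, and Cela1 and Cela2a, under 10 on 2 each.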
